A study of Mus musculus with 30 samples.

Results

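The genes described here encode subunits of the enzymes that copy DNA at the replication fork: polymerase alpha with primase (Pola2, Prim1, Prim2), polymerase delta (Pold1, Pold2, Pold3) and polymerase epsilon (Pole, Pole2, Pole3, Pole4). They were chosen by name, and all 10 were found among the 20558 protein-coding genes placed on chromosomes 1 to 19 of the mouse genome (mm10, positions from RefSeq GRCm38.p6). The study followed old and new histones on the daughter strands behind the fork in wild-type cells and in clones with the MCM2-2A changes, with 30 samples in 18 groups. The 1 sample analysed was an OK-seq library of wild-type E14TG2a, a mouse embryonic stem cell line kept in 2i/LIF medium (GSK3 inhibitor, MEK inhibitor and LIF), after 2 min of labelling with 10 µM EdU. The other 29 samples, which include all mutant clones, were not analysed here. The library gave a list of 2844 entries, each an initiation zone with its breakpoint. Listed zones can overlap, and a zone can be listed more than once. The list holds no read counts, so the depth of the library is unknown, and as a single library it has no replicate error and allows no test. The list holds no expression values, so the cell label could not be checked against marker genes.

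Polymerase alpha and primase make a short RNA-DNA primer for each new strand. Polymerase delta then extends the primers of the lagging strand into Okazaki fragments, and polymerase epsilon, held by the replicative helicase, extends the leading strand. OK-seq sequences those Okazaki fragments by strand and so shows where leftward and rightward forks part. Each listed zone has such a breakpoint, given as a bin of 1 kb, with a left and a right edge around it, and distances were measured to the middle of this bin. A gene was counted as inside a zone when either of its ends lay between the edges.

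Prim1, Pole2 and Pole3 had an end inside an initiation zone, and the other 7 genes lay outside. This is 30.0% of the 10 genes (Wilson 95% interval 10.8 to 60.3%), beside a background of 32.4% of all protein-coding genes. With Pole4, which lay 15.0 kb from a zone, 4 of the 10 genes were within 20 kb of one, beside a background of 38.5%. Both shares lay near the background. The median distance from the nearer gene end to the nearest breakpoint was 95.7 kb, against 129 kb over all protein-coding genes. None of the 10 genes held a breakpoint in its body, as 4.02% of all protein-coding genes did. The intervals treat genes as independent and cover counting error only.

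**Figure D1:**
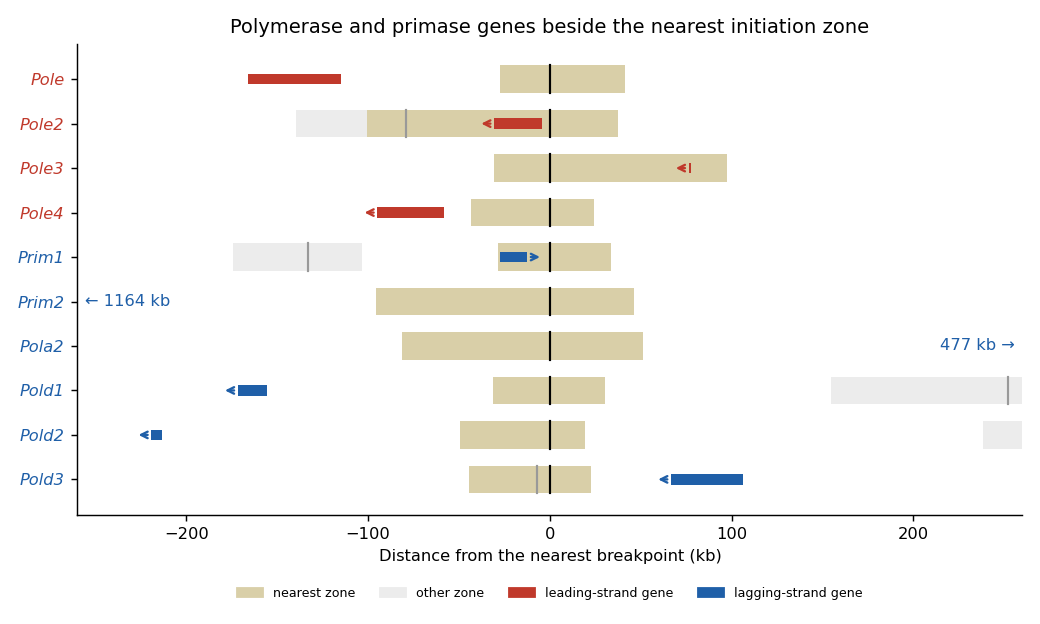
Each row shows a gene as a coloured bar, placed by its distance in kb from the nearest breakpoint (black line), with the zone of that breakpoint in tan and other zones in grey. An arrow gives the direction of transcription where strand was matched, and a number gives the distance of the 2 genes beyond the scale. Prim1, Pole2 and Pole3 lie on tan bars, and Prim2 and Pola2 are 1164 and 477 kb away.

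Genes of the leading-strand polymerase lay nearer to breakpoints than those of the lagging strand by their medians, but the ranges overlapped. Of the 6 lagging-strand members, Prim1 and Pold3 lay within the range of the Pole genes, and the others lay beyond it. These 6 leave out Pold4, which lay 66.4 kb from a breakpoint, within that range. They also leave out Pola1 on chromosome X, which was not analysed here. Among the Pole genes, 2 of 4 were inside a zone (50.0%, Wilson 95% interval 15.0 to 85.0%) and 3 of 4 within 20 kb. Among the Pola, Prim and Pold genes, 1 of 6 was inside a zone (16.7%, 3.01 to 56.4%), and the same gene, Prim1, was the only one within 20 kb. The median distance to a breakpoint was 67.4 kb for the 4 Pole genes, with a range of 4.30 to 115 kb. It was 184 kb for the 6 lagging-strand genes, with a range of 12.5 to 1164 kb, beside 129 kb over all protein-coding genes. The genes are not replicates of a condition, so the difference between Pole and lagging-strand genes has no test. When zones narrower than the median of 112 kb were left out, the medians of these 2 sets rose to 126 kb and 820.4 kb.

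The subunits of polymerase epsilon took 4 different places. Pole2, the subunit that ties the catalytic part of the enzyme to the helicase, was the nearest of all 10 genes to a breakpoint. It spans chr12:69201773-69228205, wholly inside a zone from 69132001 to 69270000, and its nearer end lay 4.30 kb left of the breakpoint. Only 3.63% of protein-coding genes were nearer to one. That end was also the start of the gene, and transcription ran leftwards, away from the breakpoint. Of the 7 genes with an end in this zone, Pole2 had the end closest to the breakpoint. The breakpoint itself lay in the body of Klhdc1, whose nearer end was 4.77 kb away and whose annotated body overlaps that of Pole2 by 477 bp. From the middle of Pole2 the distance was 17.5 kb. With the middle of the zone in place of the breakpoint, the nearer end was the other one, at 69201773, and lay 0.772 kb away. A second zone, 160 kb wide, overlapped the first and also held Pole2, with its breakpoint 79 kb to the left. The interval between these breakpoints was thus 79 kb, and 0.045% of genes lay in a shorter one.

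Pole3 encodes a histone-fold subunit that pairs with the product of Pole4, and this pair is known to bind histones H3 and H4. The gene is the shortest of the 10, at 1.22 kb (chr4:62523798-62525014), and lay wholly in the long right arm of a zone that runs from 62417001 to 62545000. It was 76.3 kb right of the breakpoint in an arm of 97 kb, and 6 of the 8 genes with an end in this zone were closer to the breakpoint. The nearest of them was Wdr31, at 1.15 kb. On its right, Pole3 faced 4933430I17Rik, transcribed in the opposite direction, across 289 bp. The neighbour starts inside the zone and reaches past its right edge, and transcription of Pole3 ran towards the breakpoint.

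Pole4, the histone-fold partner of Pole3, lay just outside a zone. Its start is the nearer end of chr6:82616532-82653043, 15.0 kb from the left edge of a zone of 67 kb and 58.5 kb from its breakpoint. The nearest genes on either side were far off, Tacr1 at 56.4 kb and Hk2, a hexokinase gene that reaches into the zone, at 72.0 kb. Only 4 other gene ends fell within 250 kb of the middle of Pole4. Pole, which encodes the catalytic subunit, lay farther from a breakpoint than the other Pole genes (chr5:110286319-110337468). It was 87.5 kb from a zone and 115 kb from its breakpoint, a distance near the median of all genes, since 46.9% of genes were nearer. It sat between breakpoints 200.4 kb to the left and 141 kb to the right of its middle, in a gap of 274 kb without zones, and its neighbour Pxmp2 was 96 bp away.

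The primase genes differed widely in their distance to listed zones. Prim1, the catalytic subunit that starts each RNA primer, spans chr10:128015215-128030030 and lay wholly in the left arm of a narrow zone of 61 kb. Its start was 1.21 kb inside the left edge, about the width of a bin, and its other end 12.5 kb from the breakpoint, so that transcription ran towards it. The gene nearest to that breakpoint was its neighbour Naca, at 6.14 kb, which encodes a chaperone of nascent proteins and held the breakpoint in its body. Another breakpoint lay 133 kb to the left of the first, and 1.38% of genes lay in a shorter interval. Prim2, the larger primase subunit, was the farthest of the 10 genes from any listed zone. It spans 216 kb (chr1:33453808-33669808) and lay 1068 kb from a zone and 1164 kb from a breakpoint. Only 475 protein-coding genes (2.31%) were farther from a breakpoint. The stretch without zones around Prim2 was 3776 kb long, and its neighbours were Rab23 at 50.1 kb and Khdrbs2 at 748.6 kb. The order of the primase genes reversed when zones narrower than the median were left out, since the zone of Prim1 is one of these. Prim1 was then 1987 kb from a breakpoint and 1896 kb from a zone, and Pold1, at 1195 kb from a zone, was also farther than Prim2, whose values did not change.

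Pola2, an accessory subunit of polymerase alpha, was also far from zones although its surroundings were full of genes. It spans chr19:5940543-5964238, and 58 other gene ends fell within 250 kb of its middle, more than around 95.9% of protein-coding genes. The nearest zone was 426 kb away and the nearest breakpoint 477 kb, and 86.4% of genes were nearer to one. The gap without zones around it was 1431 kb. Pola2 and Prim2 thus shared a long distance to zones, with 58 and 5 gene ends around them.

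Pold1, Pold2 and Pold3, the genes of polymerase delta chosen here, were all outside zones, at 44.1 to 164 kb from the nearest. Pold4, which was not among the chosen genes, was also outside zones but nearer to one, at 27.9 kb. Of Pold1, Pold2 and Pold3, the closest was Pold3, a subunit that binds the sliding clamp (chr7:100082110-100121502). It lay 44.1 kb from a zone of 66 kb that was listed with 2 breakpoints 7 kb apart, and 66.6 kb from the nearer of these. Pold1, the catalytic subunit (chr7:44532744-44548815), lay 124 kb from a zone and 156 kb from its breakpoint, close to the middle of all genes, of which 55.5% were nearer. It is packed between Spib at 656 bp and Nr1h2 at 800.0 bp, all 3 transcribed leftwards. Pold2, the subunit that joins the others (chr11:5872180-5878256), lay 164 kb from a zone and 213 kb from its breakpoint. Its end overlaps that of Aebp1, transcribed against it, by 69 bp.

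**Figure D2:**
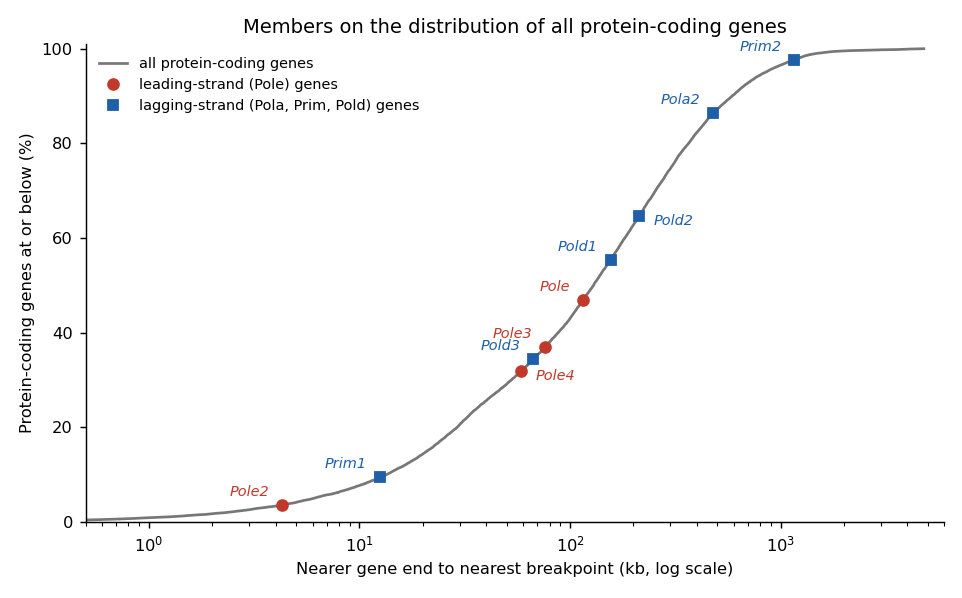
The grey curve gives the share of all 20558 protein-coding genes (%, vertical axis) whose nearer end lies at or below a distance in kb from a breakpoint (horizontal axis, log scale), and each marker is 1 of the 10 genes. Markers run from Pole2 at 4.30 kb to Prim2 at 1164 kb along the whole curve.

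Most of the 10 genes had a narrow zone as their neighbour. The zone of the nearest breakpoint was 61 kb wide for Prim1 and Pold1, 66 kb for Pold3, 67 kb for Pole4 and 68 kb for Pold2 and Pole. These 6 genes fell below the lower quartile of all listed zones, 82 kb, beside a background of 20.8% of all protein-coding genes. The other 4 zones, of Pole3, Pola2, Pole2 and Prim2, were 127 to 141 kb wide, above the median zone of 112 kb. The genes with narrow zones were 2 of the 4 Pole genes and 4 of the 6 lagging-strand genes, all 3 Pold genes among them. Only Prim1 lay inside its narrow zone. The measure was chosen after the values were seen.

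**Figure D3:**
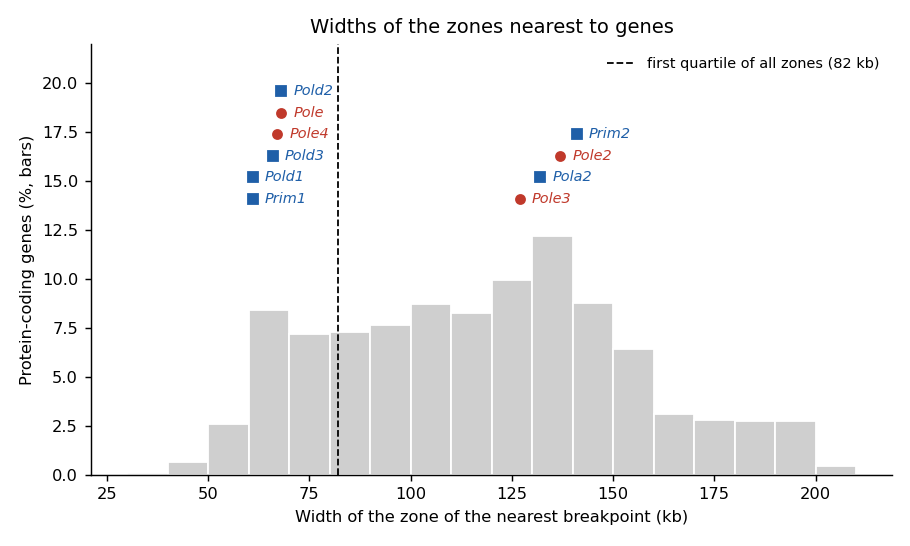
Bars give the share of all protein-coding genes (%) by the width in kb of the zone of their nearest breakpoint, and labelled markers give that width for each of the 10 genes, with the height of a marker only separating the names. The 6 genes at 61 to 68 kb sit left of the dashed line at 82 kb, and the other 4 at 127 to 141 kb.

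Between its flanking breakpoints, each gene had a place that the distance to the nearer one does not give. Pole3 lay 76.9 kb from the breakpoint on its left and 987 kb from that on its right, measured from the middle of the gene. Pole4 and Pold1 showed the opposite arrangement, 644 and 930.3 kb from the breakpoint on the left and 76.7 and 164 kb from that on the right. The 10 intervals had a median of 658.5 kb, against 880.0 kb over all protein-coding genes with a breakpoint on both sides, and ranged from 79 kb for Pole2 to 3932 kb for Prim2. The list does not give the direction of forks between zones, so the fork that copies a gene outside a zone is not known from it.

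**Figure D4:**
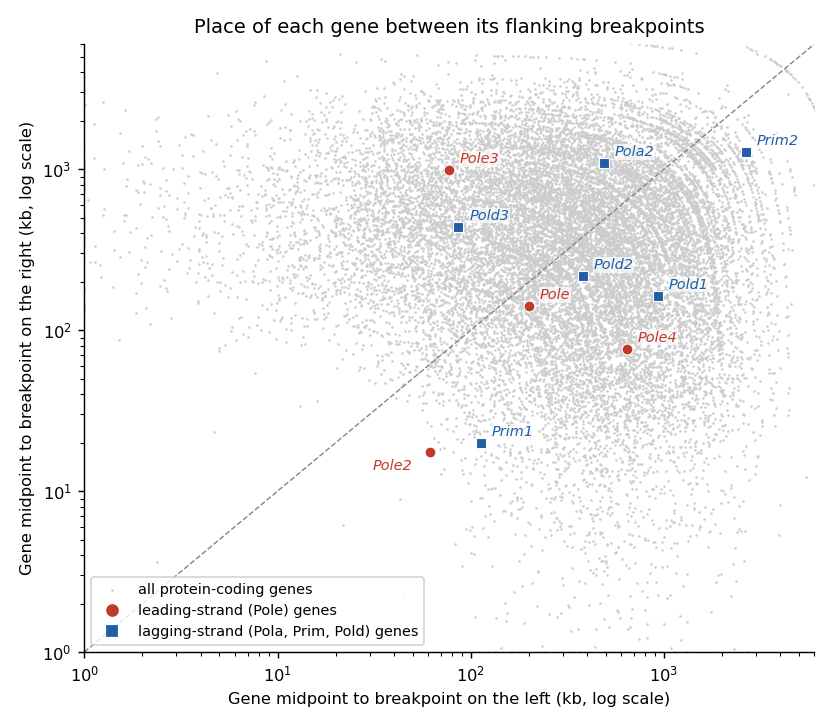
The distance in kb from the middle of a gene to the breakpoint on its left (horizontal axis, log scale) is plotted against that to the breakpoint on its right (vertical axis, log scale), for all protein-coding genes in grey and the 10 genes as markers. Pole2 lies at 61.5 kb on the left and 17.5 kb on the right, Prim1 at 113 and 19.9 kb, and Prim2 at 2660 and 1272 kb.

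Strand was matched for 8 of the 10 genes. In Pole2, Pole4, Pold1 and Pold2 transcription ran away from the nearest breakpoint, the direction of a fork that leaves it, and in Pole3, Prim1, Pola2 and Pold3 towards it. This even division lies near the background of 52.5% of genes running away. Among genes with an end inside a zone the background was 59.1%, and of the 3 such members only Pole2 ran away from its breakpoint. Several members stood close to another gene: 5 of the 10 (Pold1, Pold2, Pole, Pole2 and Pole3) had a neighbour within 1 kb or overlapping, beside a background of 32.3%. The count of such neighbours was not among the planned measures, and the difference was not tested.

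The 250 bases before the start (RefSeq, GRCm38.p6) were matched for the same 8 genes, and 4 are shown: those of the 3 genes whose start lies inside a zone, and that of Pold2, which lies outside zones. They read 5′ to 3′ in the direction of transcription and end at the base before a start of the RefSeq promoter table. For Pole2 this start is 15 bp inside the outermost annotated end of the gene used for distances, so the window overlaps the annotated gene by its last 15 bases, and for Prim1, Pole3 and Pold2 it is the outermost end. Capitals mark matches on either strand to the GC box GGGCGG, the CCAAT box (letters CCAAT), the TATA box (letters TATAAA), an E2F-type motif (TTTNGCGC) or a CHR-type motif of cell cycle genes (TTTGAA). A start inside a zone was found for 3 of the 8 genes, beside a background of 28.1%. Pole2 lies on the minus strand at chr12:69228191-69228440, Prim1 on the plus strand at chr10:128014965-128015214, Pole3 on the minus strand at chr4:62525015-62525264 and Pold2 on the minus strand at chr11:5878257-5878506.
Pole2: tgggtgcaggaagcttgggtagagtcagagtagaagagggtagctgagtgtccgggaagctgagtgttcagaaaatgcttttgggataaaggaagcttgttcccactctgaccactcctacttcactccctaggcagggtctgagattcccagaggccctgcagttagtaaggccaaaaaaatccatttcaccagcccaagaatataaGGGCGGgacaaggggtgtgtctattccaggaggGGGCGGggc
Prim1: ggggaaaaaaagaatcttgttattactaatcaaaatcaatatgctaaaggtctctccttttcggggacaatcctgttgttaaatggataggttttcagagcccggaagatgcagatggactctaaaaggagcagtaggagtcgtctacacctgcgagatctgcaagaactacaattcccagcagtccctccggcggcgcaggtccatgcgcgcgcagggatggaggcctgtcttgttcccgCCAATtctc
Pole3: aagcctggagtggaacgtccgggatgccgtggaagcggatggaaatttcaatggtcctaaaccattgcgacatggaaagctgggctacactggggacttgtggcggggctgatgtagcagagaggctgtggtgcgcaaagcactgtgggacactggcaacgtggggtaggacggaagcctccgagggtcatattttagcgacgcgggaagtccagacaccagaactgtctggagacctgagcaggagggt
Pold2: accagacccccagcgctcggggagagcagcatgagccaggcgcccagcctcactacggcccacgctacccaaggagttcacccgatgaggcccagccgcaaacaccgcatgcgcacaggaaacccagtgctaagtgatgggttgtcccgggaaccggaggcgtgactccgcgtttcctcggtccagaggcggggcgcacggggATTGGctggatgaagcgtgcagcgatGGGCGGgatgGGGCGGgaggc

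The windows differed in base composition and in the motifs they held. The Pole2 window had 3 CpG sites, an observed over expected ratio of 0.180, while the other 7 windows had 11 to 24 sites and ratios of 0.684 to 0.945. The Pole2 window lies wholly inside the annotated body of its neighbour Klhdc1, which is transcribed in the opposite direction. A ratio over 0.6 was thus found in 7 of 8 members, and in 46.6% of 16457 protein-coding genes with a window. Matches to GGGCGG were present in 6 of the 8 windows (Pola2, Pold1, Pold2, Pold3, Pole2 and Pole4), beside 43.6% of all windows. The windows of Pole4 and Pola2, not shown, overlap their own annotated genes by 169 and 32 bases. CCAAT was matched in Pold2 and Prim1, beside 36.3%. None of the 8 windows matched the letters used for the TATA box, the E2F-type motif or the CHR-type motif. These letters were matched in 12.5%, 1.46% and 14.4% of all windows. Other forms of the motifs, among them other E2F-type sites, were not searched. The Pole3 window had no match to any of the letters searched. The motifs do not overlap each other in the windows shown, and a match is a description of letters only.

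Other genes of the replication fork and other DNA polymerases were set beside the 10 genes. Of 34 replisome partner genes, 19 (55.9%, Wilson 95% interval 39.5 to 71.1%) had an end inside a zone, beside the background of 32.4%, and their median distance to a breakpoint was 34.7 kb. The nearest were Rpa2, of the single-strand binding protein (0.860 kb), the clamp loader genes Rfc2 (3.17 kb) and Rfc5 (4.36 kb) and the helicase gene Mcm4 (5.40 kb). The farthest were the DNA ligase gene Lig1 (1318 kb) and Rfc3 (818 kb). Of 16 genes of other DNA polymerases and their partners, most of them of repair, damage bypass or mitochondria, 6 (37.5%, 18.5 to 61.4%) had an end inside a zone, with a median of 95.8 kb. The nearest were the repair polymerase gene Poll (0.225 kb), the mitochondrial polymerase gene Polg (6.59 kb), the repair gene Polb (10.6 kb) and the bypass gene Poli (18.6 kb), and the farthest were Rev3l (414 kb) and Polq (331 kb). Pold4, the remaining small subunit of polymerase delta, lay 27.9 kb from a zone and 66.4 kb from a breakpoint. Pola1, the catalytic subunit of polymerase alpha, lies on chromosome X, which was not analysed here. The interval of the 10 genes (10.8 to 60.3%) overlaps those of both lists. The lists were chosen with earlier results of these data known, and the intervals cover counting error only. No difference between lists, or between a list and the background, was tested.

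**Figure D5:**
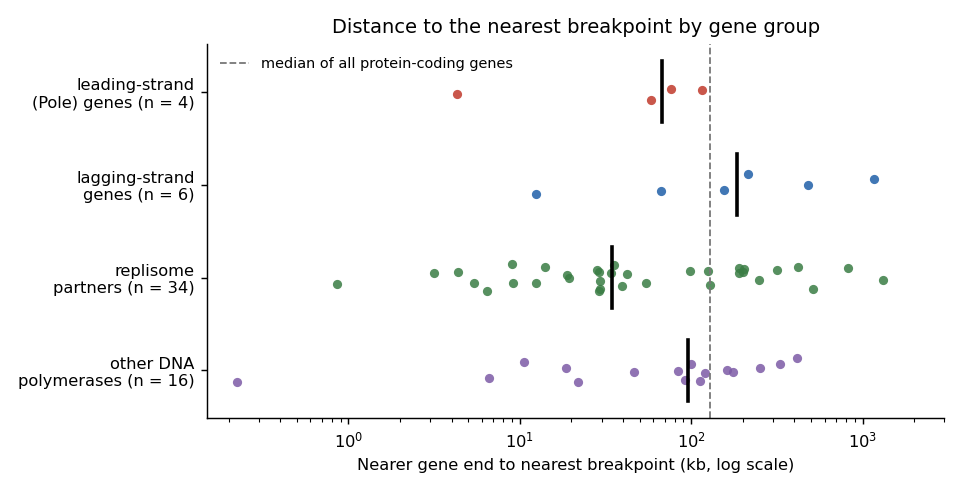
Points give the distance in kb from the nearer gene end to the nearest breakpoint (log scale) for each gene of 4 groups, black lines their medians, and the dashed line the median of all protein-coding genes (129 kb). Medians are 67.4 kb for leading-strand genes, 184 kb for lagging-strand genes, 34.7 kb for replisome partners and 95.8 kb for other DNA polymerases, and the points of all 4 groups overlap.

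The genes inside and outside zones overlapped in gene length and in the number of genes around them. Over all protein-coding genes, the share inside a zone rose from 23.8% of those under 10 kb to 41.3% of those of 100 kb or more. Of the 10 genes, the 3 inside zones were 1.22 kb (Pole3), 14.8 kb (Prim1) and 26.4 kb (Pole2) long, while Prim2, Pole, Pold3 and Pole4, all over 30 kb, lay outside. By gene number, the background ran from 35.2% for genes with fewer than 10 other gene ends within 250 kb to 27.4% for those with 40 or more. The genes inside zones had 18 (Pole2), 24 (Pole3) and 37 (Prim1) such ends, and those outside 4 to 58.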

How the data were processed

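The deposited file of the wild-type OK-seq library lists breakpoint bins with the distances in bp to a minimum and a maximum on either side, per the file headers, and holds no counts or signal. Per the submitters' processing notes, the build was mm10 and the tools included bcl2fastq, Trim Galore (0.4.2), SAMtools, Picard (2.8.2), Bowtie and BWA (0.7.13), named without a role. The sources used here do not say how zones were called. The width equalled the sum of the arms in all 2844 entries, and no arm exceeded 100 kb. Gene ends came from a RefSeq table of GRCm38.p6 (46709 genes of all kinds on chromosomes 1 to 19, of which 20558 are protein-coding), without 333 genes taken as lying on scaffolds (start before 3 Mb, or after a drop in start position). Strand came from a RefSeq promoter table, which matched 16457 protein-coding genes, and a gene's start is its outermost end on that side. Distances were computed with Python 3.11.15, numpy 2.4.6 and pandas 2.3.3, Wilson intervals with scipy 1.17.1, and the distance code was tested on simulated data (200 planted genes, 100.0% recovered). All 10 members, the nearest gene on each side, the gene nearest to the breakpoint of a member's zone, and the 4 nearest and 2 farthest genes of each list are named; others are named for their position, after it was seen. The members and lists were chosen with earlier results of these data known. There is no test and no p-value, since 1 library allows none. The alternatives tried changed the zones, the point of a gene, the distance limit and the background.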

Additional observations from a re-analysis of the deposited data

How the results depend on the processing

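The number of the 10 genes with an end inside a zone was 2 or 3 under every alternative run. Leaving out zones narrower than the median changed the most of the counts and medians over the genes, since it keeps 1429 zones and drops the narrow zones beside 6 of the 10 genes: 2 genes were then within 20 kb, 0 lagging-strand genes were inside a zone, and the median distance to a breakpoint was 447.5 kb for the 10 genes, 820.4 kb for lagging-strand and 126 kb for leading-strand genes. With only zones whose arms are both below 100 kb, 1 leading-strand gene was inside a zone, because both zones around Pole2 reach that limit. The background of genes inside a zone was 22.5% with gene midpoints, 24.8% with genes of all kinds, 34.5% with genes of the members' length range, 28.1% with transcription starts and 20.1% with wide zones. The background within 20 kb was, in the same order, 29.9%, 30.4%, 41.0%, 33.9% and 23.4%. Merging zones less than 10 kb apart, the middle of the zone in place of the breakpoint, and limits of 5 and 50 kb left each count and median within 1.5 times its value. Of the distances of single genes to a zone or breakpoint, 16 of 20 moved by more than 1 kb with gene midpoints, 12 of 20 with wide zones, 9 of 20 with the middle of the zone and 6 of 16 with starts, which could be used for 8 of the 10 genes. With wide zones the distance to a breakpoint was 1987 kb for Prim1, 1293 kb for Pold1, 626 kb for Pole4, 418 kb for Pold3, 377 kb for Pold2 and 175 kb for Pole. It was 42.8 kb for Pole3 with the middle of the zone, and 19.9 kb and 27.3 kb for Prim1 with its midpoint and start. No paired analysis was possible because only 1 sample was analysed. The bins limit distances to about 1 kb, and depth is unknown.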

Other observations

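For some of the 10 genes, another gene of DNA replication or repair at 22.8 to 202 kb is named here, after its position was seen. How often other genes have such a neighbour was not counted. Polm, a DNA polymerase of end joining, lay 33.3 kb from Pold2 on chromosome 11, between the same breakpoints, and 203 kb from a zone. Lrr1, whose product takes part in removing the helicase at the end of replication, lay 22.8 kb from Pole2 on chromosome 12, between the same breakpoints, with an end inside a zone and 15.3 kb from a breakpoint. Timeless, of the fork protection complex, lay 202 kb from Prim1 on chromosome 10, not between the same breakpoints. It was outside zones and 189.6 kb from a breakpoint.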
